A study of Mus musculus with 12 samples.

Results

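The surface receptors of lymphocytes Cd3e, Cd4, Cd8a, Cd28, Icos, Ctla4, Cd5, Cd6 and Cd22, 9 genes in all, were examined for m6A peaks in mouse lung. Their peaks were those assigned to 1 of the 9 genes or called on it, which gave 18 of 27292 peaks for the OVA group and 10 of 26102 for the PBS group. The mice were female BALB/c, 6 to 8 weeks old. Mice of the OVA group were injected with ovalbumin (OVA) and aluminum hydroxide on days 0 and 7 and breathed aerosolized 3% OVA for 30 min a day from day 14 to day 20, and mice of the PBS group received phosphate-buffered saline. On day 21 the study's mice had a provocation test with methacholine, after which lavage fluid and lung were collected. Lung RNA of 3 mice per group was used, and whether these mice were tested and lavaged is not stated. Each mouse gave a library of RNA pulled down with an m6A antibody (IP) and an input library, 12 libraries in all. Each group had 1 peak list, which holds no values of single mice, so no replicate spread is given and no test between the groups was run here. Read numbers per peak are not used here, so the depth behind each value is unknown.

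T cells recognise antigen through a receptor that signals through the CD3 chains, while CD4 or CD8 binds the MHC molecule that presents the antigen. CD28 and ICOS add a stimulating signal and CTLA-4 an inhibitory one, and CD5 and CD6 adjust the strength of T cell receptor signalling. CD22 is an inhibitory receptor of B cells, and T helper cells and B cells that make IgE are central to allergic inflammation of the lung. m6A is a methyl mark on adenosines of RNA that lies mostly near stop codons and in 3' UTRs.

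All 9 genes had an OVA peak, and 7 also had a PBS peak. Cd8a and Ctla4 had peaks in the OVA list only, and no gene had peaks in the PBS list only. Among the 17415 genes with a peak in either list, 10.2% had one in the OVA list only and 6.87% in the PBS list only. Of the 18 OVA peaks, 8 overlapped no PBS peak by their exonic blocks, against 19.4% of all OVA peaks. None of the 10 PBS peaks was without an overlapping OVA peak, against 14.5% of all PBS peaks. With an overlap of 50% of both peaks required, 3 of the 10 lacked an OVA peak, and the share of all PBS peaks at that overlap is not given here. The 8 unmatched OVA peaks were weak in significance, with a log10 FDR between -8.98 and -1.84, while the 10 matched OVA peaks had -14.7 or lower. At a division of -10, chosen after these values were seen, 44.8% of all OVA peaks above it and 4.66% of those at or below it lacked a PBS peak. With -10 or below required in both lists, the genes with peaks in the OVA list only were Cd4, Cd6 and Icos in place of Cd8a and Ctla4, so the genes named depended on the significance required. At that setting 10.8% of the 13153 genes with such a peak were in the OVA list only. Of the receptors' 10 such OVA peaks, 4 lacked such a PBS peak, against 15.4% of all 17300 such OVA peaks. A missing peak does not show that the RNA was unmethylated. In whole lung, more cells of a type and more RNA per cell cannot be told apart, and either can change whether a peak is called.

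Fold enrichment compares IP with input as a ratio within a peak. In the matched peaks it was higher in the OVA list for 5 and higher in the PBS list for 5. The median log2 ratio of OVA over PBS was 0.04, and over all 22009 matched peaks it was 0.12, with quartiles of -0.23 and 0.45. The median for the receptors was -0.12 with an overlap of 50% of both peaks, which left out the 3 pairs of Cd4, Cd5 and Cd6, so its sign depended on the overlap required. After subtracting the median of all matched peaks it was -0.07, since the receptors' median lay below that of all peaks. Of the 10, 1 was at least 2 times higher in the OVA list, against 7.63% of all matched peaks, and 0 were at least 2 times higher in the PBS list, against 6.8%. The lists came from separate callings, so these ratios describe the lists. A pair of features that were looked at after the values were seen ran the same way in each matched pair. The deposited p value was lower in the OVA list in 10 of 10 pairs, against 57.3% of all matched peaks, and the exonic blocks were longer in the OVA list in 10 of 10 pairs, against 47.9%. A p value depends on the number of reads as well as on the ratio, and the part of RNA amount in these differences was not tested.

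**Figure D1:**
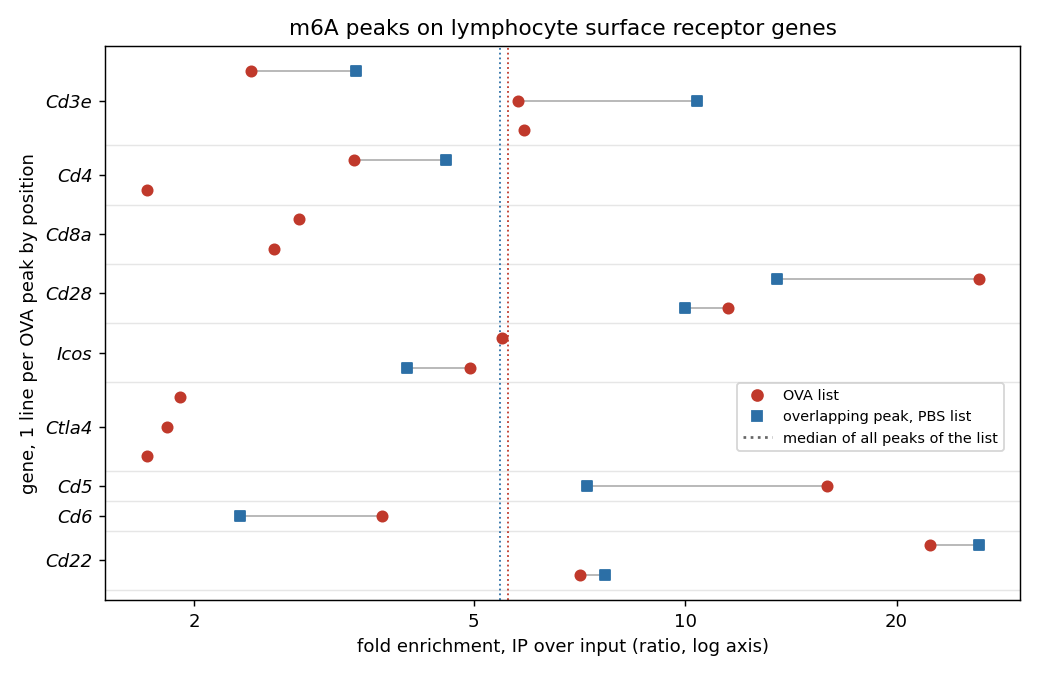
Fold enrichment of IP over input (log axis) of each OVA peak on the 9 genes (circles) and of the PBS peak that overlaps it (squares), with the median of all peaks of each list as dotted lines. The 8 OVA peaks without a square lie between 1.71 and 5.90, and the 10 joined pairs point in both directions.

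Cd3e encodes the epsilon chain of CD3, and coordinates here and for the other genes are those of the lists, on GRCm38. At its 3' end, on chromosome 9, the OVA peak at 44998949 to 44999520 had a fold enrichment of 2.41 and the PBS peak at 44998979 to 44999340 had 3.40. The authors' annotation assigned the OVA peak to the antisense gene Gm48719 and the PBS peak to Cd3e itself, although both were called on Cd3e. The libraries kept the strand of the RNA, but whether strand was used in counting is not stated, so the share of the gene and of its antisense partner in these peaks is not known. In the last exon of another Cd3e transcript, upstream of the retained-intron transcript that the annotation assigned, peaks starting at 45003315 had 5.78 in OVA lung and 10.4 in PBS lung. A further OVA peak at 45003795 to 45003975 had a fold enrichment of 5.90 and no PBS partner. Both shared peaks of Cd3e were thus higher in the PBS list, by 1.41 and 1.80 times.

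Cd4 encodes the co-receptor of helper T cells. Its 3' UTR peak on chromosome 6 ended at 124865976 in both lists, beginning at 124865646 in OVA lung and at 124865826 in PBS lung. Enrichment was 3.38-fold with OVA and 4.56-fold with PBS, and the annotation assigned the peak to the neighbour Gpr162 in both. A peak of 2 blocks at 124879655 to 124888221, annotated as 5' UTR, was found in the OVA list only. Its fold enrichment of 1.71 lay at percentile 5.31 of the list.

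Cd8a encodes the alpha chain of the co-receptor of cytotoxic T cells. Its OVA peaks lay in an exon near the start of the gene, at 71373575 to 71373814 on chromosome 6, and in the 3' UTR, at 71377354 to 71377593. Their fold enrichments were 2.82 and 2.60, and the log10 FDR was -1.84 and -8.98. The first of these was the weakest of the 18 OVA peaks by FDR. Cd8b1, which encodes the beta chain, had 1 OVA peak and 2 PBS peaks, with highest fold enrichments of 14.5 and 24.2, so the PBS list was not without peaks on CD8 chains.

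Cd28, Ctla4 and Icos encode related receptors and lie close together within 253935 bp of chromosome 1. The span held 7 OVA peaks, all on the 3 genes, and 4 PBS peaks, of which 3 were on them. Cd28 had the strongest enrichment of the 3. Its OVA peak at 60764622 to 60770224 had 3 exonic blocks and a fold enrichment of 26.2, at percentile 96.1 of the list. The last block, at 60769656 to 60770224, had the coordinates of the PBS peak, whose fold enrichment was 13.5. The next peak, starting at 60770790 (OVA) or 60770820 (PBS), had 11.5 and 10. The annotation assigned all 4 of these peaks to the lincRNA 2310016D23Rik, so no peak carried the gene name Cd28.

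Icos had a 3' UTR peak that ended at 60998054 in both lists, assigned to Gm37039, enriched 4.93-fold with OVA and 4.01-fold with PBS. The log10 FDR was -53.3 and -7.77. A 5' UTR peak of 61 bp, at 60977956 to 60978016, was in the OVA list only, with a fold enrichment of 5.48 and a log10 FDR of -2.45. The 3' UTR peak was thus close in enrichment between the lists and far apart in FDR.

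Ctla4 had 3 OVA peaks and no PBS peak. They lay at 60909075 to 60909165 in the 5' UTR, and in exons at 60909224 to 60912428, with 2 blocks, and at 60912487 to 60912697. The fold enrichments were 1.91, 1.83 and 1.71, and none reached percentile 9 of the list, the highest being 8.62. With a minimum fold enrichment of 2 no Ctla4 peak was left, and Cd8a was then the 1 gene with peaks in the OVA list only. The share of all genes at that minimum is not given here. The first peak began directly after the RefSeq promoter window of Ctla4, which reaches from 250 bases before the RefSeq gene start to 50 bases from it on. Promoter windows were found for 5 of the 9 genes. The last 30 bases of this window, chr1:60909045-60909074 on the plus strand of GRCm38.p6, are shown because they border the peak, with the letters TATAAA in capitals.
Ctla4: ccttggatcaaagctgtctaTATAAAgtcc
TATAAA, searched on both strands, occurred in 13.6% of all 32851 promoter windows and in 1 of the 5 found here, and the match is a description only. The RefSeq gene start at 60909025 lies upstream of these letters, while the transcript assigned to the peaks starts downstream, at 60909171.

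**Figure D2:**
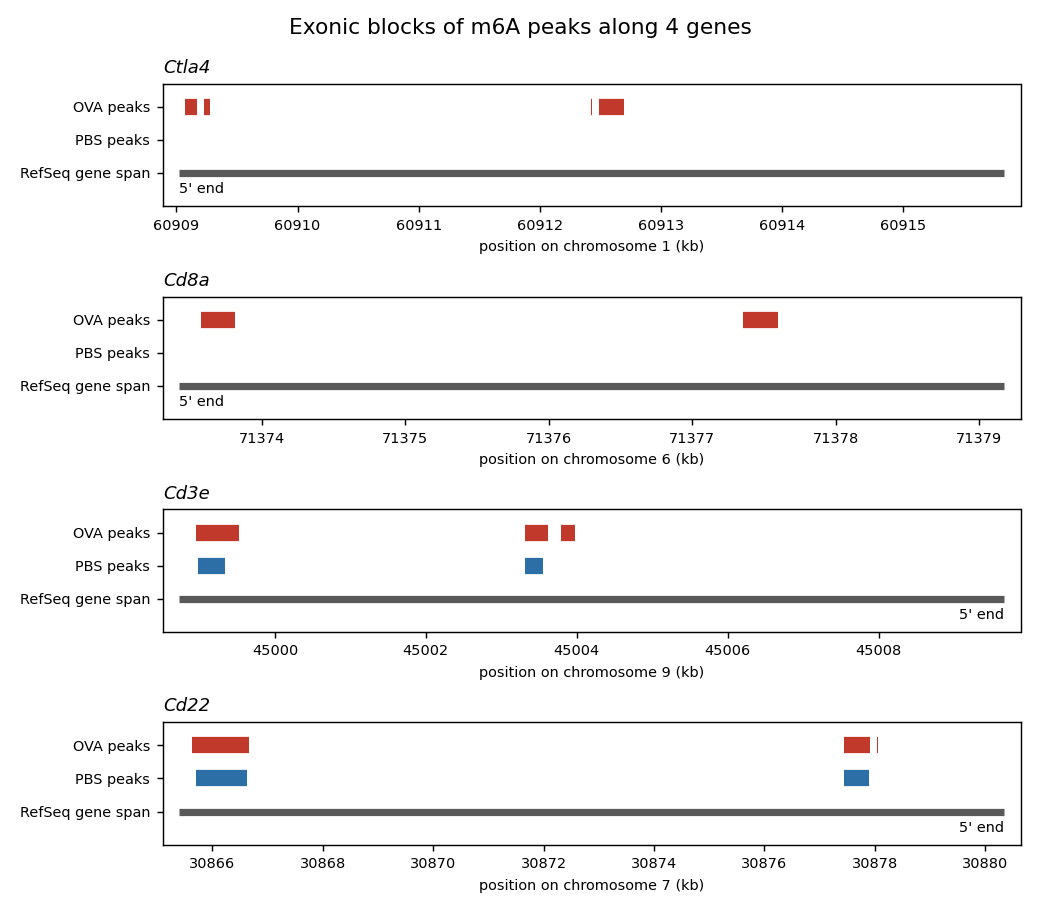
Exonic blocks of the OVA peaks (upper row) and PBS peaks (middle row) along the RefSeq spans of Ctla4, Cd8a, Cd3e and Cd22, with the position on the chromosome in kb on each horizontal axis. Ctla4 and Cd8a have 3 and 2 OVA peaks and no PBS peak, while the PBS peaks of Cd3e and Cd22 each lie at an OVA peak.

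Cd5 and Cd6 encode scavenger receptor family proteins of T cells and are neighbours on chromosome 19. The Cd5 peak in the 3' UTR covered 689 bp in the OVA list, in 2 blocks at 10718071 to 10719264, and 331 bp at 10718160 to 10718490 with PBS. Enrichment was 15.9-fold with OVA and 7.25-fold with PBS. This pair, with a log2 ratio of 1.13, was the 1 pair past a 2-fold ratio. The PBS peak covered 48.0% of the OVA blocks, so with an overlap of 50% of both peaks the pair was not matched and 0 pairs passed. The Cd6 peak, at the very end of the gene, covered 302 bp with OVA, at 10789340 to 10789641, and 92 bp with PBS, at 10789520 to 10789611. It was enriched 3.70-fold and 2.32-fold, so both genes were higher in the OVA list.

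Cd22 had the lowest p values of the 9 genes in both lists. The peak near its 3' end on chromosome 7 spanned 30865640 to 30866655 in the OVA list, with a fold enrichment of 22.3, and 30865699 to 30866625 in the PBS list, with 26.2. These values lay at percentiles 94.1 and 97.0 of their lists, and the FDR was listed as 0 in both. The annotation assigned this peak to the neighbour Ffar1. The other Cd22 peak began at 30877441 in both lists and had 7.09 and 7.70. Fold enrichment at Cd22 was thus slightly higher in the PBS list at each peak. The log10 p values were far apart, at -2030 with OVA and -499 with PBS for the first peak and at -384 and -106 for the other.

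The mismatch between the gene a peak was called on and the gene it was assigned to concerned 6 of 18 OVA peaks and 5 of 10 PBS peaks. Over all peaks the share was 22.5% for OVA and 22.8% for PBS. A count by assigned name alone would leave out the most enriched peaks of Cd28 and Cd22. The 3' UTR held 10 of 18 OVA peaks and 9 of 10 PBS peaks, and 52.7% of all peaks in each list. These are the annotation's labels, and both counts include the Cd22 peak at 30877441, which lay 12037 bp from the gene's 3' end. The 5' UTR held 3 of the 18 OVA peaks, against 11.6% of all OVA peaks. None of the 3 had a PBS partner, against 23.6% of all 5' UTR peaks without one, and each of the 3 had a log10 FDR above -10.

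Other genes of the same systems were counted in the same way. Of 12 further genes of the T cell receptor and co-receptor complex, 8 had an OVA peak and 7 a PBS peak, with Cd3g in the OVA list only at a fold enrichment of 3.67. Of 15 further co-stimulatory and inhibitory receptors, 11 and 8 did. Lag3 (5.31), Tigit (4.62) and Tnfrsf9 (1.69) had a peak in the OVA list only, with a log10 FDR of -2.34, -5.73 and -4.11. Of 11 ligands, 8 and 7 did, with Cd80, a ligand of CD28 and CTLA-4, in the OVA list only at 14.9. Of 15 B cell receptors and surface proteins, 13 and 12 did, with Cr2 in the OVA list only at 3.89. Of 28 signalling proteins, 22 and 23 did, with Malt1 in the PBS list only at 2.00, with a lowest log10 FDR of -6.44. The lowest log10 FDR was -5.60 for Cd3g and -6.77 for Cr2, which with those of Lag3, Tigit and Tnfrsf9 lie above -10, where 44.8% of all OVA peaks lacked a PBS peak, and -12.6 for Cd80. Over all genes, 10.2% were in the OVA list only and 6.87% in the PBS list only. The p value was lower in the OVA list in 9 of 10 matched pairs of the T cell receptor list, 13 of 14 of the co-stimulatory and inhibitory receptors, 13 of 17 of the ligands, 19 of 19 of the B cell list and 31 of 34 of the signalling proteins, against 57.3% of all matched peaks. The median log2 ratio of fold enrichment was 0.31, 0.25, 0.26, 0.15 and 0.03 in the same order, beside 0.12 over all matched peaks. Pairs at least 2 times higher in the OVA list were 4 of 10, 1 of 14, 3 of 17, 1 of 19 and 1 of 34. That share was 7.63% over all matched peaks. Pairs at least 2 times higher in the PBS list were 0, 1, 1, 0 and 1, against 6.8% of all matched peaks.

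Marker genes of cell types were read beside these counts. All 7 T cell markers had an OVA peak and 5 had a PBS peak, but 5 of the 7 are among the 9 receptors, and Cd22 is among the B cell markers. Among the B cell markers, 3 had a peak in both lists. The p value was lower in the OVA list in 6 of 6 T cell pairs and 5 of 5 B cell pairs, against 57.3% of all matched peaks. Of these, 5 and 2 are pairs of the receptors. The others are pairs of genes in the T cell receptor and B cell lists, so all were already counted. The median log2 ratio of fold enrichment was -0.21 for the T cell and -0.12 for the B cell markers, with the receptors' pairs included, -0.09 for NK cell and eosinophil markers, 0.04 for neutrophil, 0.11 for fibroblast and smooth muscle, 0.16 for endothelial, 0.19 for macrophage and dendritic cell and 0.31 for epithelial markers, beside 0.12 over all matched peaks. The eosinophil median came from 2 pairs that ran in opposite directions, each by at least 2 times, so it does not show a lack of difference. Of the 3 NK cell pairs, 1 was at least 2 times higher with OVA and 0 with PBS. The p value was lower in 4 of 13 pairs of endothelial markers, 3 of 7 of fibroblast and smooth muscle markers, 5 of 7 of epithelial markers, 7 of 9 of macrophage and dendritic cell markers, 4 of 4 of neutrophil markers, 2 of 3 of NK cell markers and 2 of 2 of eosinophil markers. Several of these counts are small or near the share over all peaks, and differences between the lists of markers were not tested. The part of cell numbers in the receptors' peaks was not tested. Of 5 neutrophil markers, 2 had a peak in both lists, 1 had none, and S100a8 and S100a9 had a peak in the PBS list only. Their fold enrichments were 2.15 and 2.59, with a log10 FDR of -12.3 and -11.7. Over all genes, 6.87% were in the PBS list only. The share of PBS peaks at such an FDR that lack an OVA peak is not given here. Lung markers were present by peaks, with 4 of 6 epithelial and 5 of 5 endothelial markers in both lists, while Sftpc and Epcam had none in either.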

How the data were processed

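Per the study's methods, the authors used FASTP to trim reads, HISAT2 to align them against the mouse genome of Ensembl version 101, a release on GRCm38, exomePeak for peak calling and ChIPseeker for annotation. How the 3 mice of a group were combined and the peak calling settings are not given in the sources used here. Fold enrichment was deposited as a ratio of IP to input. Significance was deposited as a score, namely log10 p or log10 FDR, with minus infinity where the FDR was 0. Deposited widths, block numbers and distances are in bp or numbers.

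Here, peaks of both lists were matched by an overlap of exonic blocks of at least 1 bp, each OVA peak with the PBS peak sharing most bp. Of the peaks called on RefSeq protein-coding genes, 97.7% (OVA) and 97.8% (PBS) overlapped the gene's GRCm38.p6 position, as did all 18 and 10 peaks described, and coordinates are given on that build. Promoter sequences are from RefSeq GRCm38.p6. The 9 genes and the gene lists were chosen with earlier results of these data known. All 9 genes were named with every peak, and genes of the other lists where a peak was in 1 list only. Cd8b1, Sftpc and Epcam were named after their values were seen. Other genes of the lists are given as counts, and the result of 1 of them is not reported here. The division at a log10 FDR of -10 and the comparisons of p values and block lengths within pairs were added after the values were seen. Counts of sequence motifs in peaks and protein comparisons were planned and not run, since no genome or protein table was used here. Python 3.11.15, numpy 2.4.6, pandas 2.3.3 and matplotlib 3.10.9 were used, and the overlap code was tested on simulated peaks.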

Additional observations from a re-analysis of the deposited data

How the results depend on the processing

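Of 29 alternatives to the 6 counts and medians, 18 left the value within 1.5 times of the main count or unchanged, 9 moved it and 2 turned the sign of a median. An FDR under 0.05 could not move a value, since all 18 OVA and 10 PBS peaks had one. The called gene identifier alone could not either, since no peak was assigned to a receptor and called elsewhere. Both settings are counted among the 18, so that number does not measure stability. With protein-coding assigned transcripts only, peaks on the 9 genes numbered 11 (OVA) and 4 (PBS), and with the assigned gene name only the PBS list kept 5. OVA peaks without a PBS peak numbered 18 with identical start and end, where no peak had a partner, and 4 with a fold enrichment of at least 2. The shares of all OVA peaks at these settings are not given here, so these counts are not set against the whole list. PBS peaks without an OVA peak numbered 3 with an overlap of 50% of both peaks and 10 with identical start and end. For all PBS peaks the shares at these settings are likewise not given. The median log2 ratio of 0.04 was -0.12 with an overlap of 50%, which dropped the pairs of Cd4 (-0.43), Cd5 (1.13) and Cd6 (0.67) and left 3 higher in OVA and 4 higher in PBS. Centring subtracts the median of all matched peaks, 0.12, from each ratio and gave -0.07. With a fold enrichment of at least 2, 1 gene had peaks in the OVA list only, and the share of all genes at that setting is not given here. In an alternative chosen after seeing the data, a log10 FDR of -10 or below in both lists, 4 OVA peaks lacked a PBS peak and the 3 genes in the OVA list only were Cd4, Cd6 and Icos, in place of Cd8a and Ctla4. At that setting 15.4% of the 17300 OVA peaks at -10 or below lacked such a PBS peak. Of the 13153 genes with such a peak, 10.8% were in the OVA list only. Which genes appear in 1 list only therefore depended on the significance required.

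No paired analysis was possible because each group has 1 pooled list and no result comes from a test, and no replicate was left out for the same reason. Read numbers behind single peaks are not used here, so no interval is given.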
